A study of Mus musculus with 6 samples.

Results

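Satellite glial cells wrap the cell body of each sensory neuron in a dorsal root ganglion (DRG), and 10 genes that mark them were followed here: Fabp7, Dbi, Glul, Slc1a3, Ednrb, S100b, Sox10, Cdh19, Cadm2 and Ptprz1. They were chosen by symbol from 54309 genes, all 10 were found under 1 gene identifier each, and all 10 passed the filter on low values. Of the 6 libraries 3 are labelled AAV-Leptin-GFP, from mice that received leptin and GFP by AAV, an engineered virus that delivers genes. They are set against 3 labelled AAV-GFP, from mice whose virus held GFP without leptin. In both groups the virus was injected bilaterally in the sciatic nerve, the axons of the dorsal columns were severed 4 weeks later, and DRG of lumbar levels 4 to 6 were taken 24 hours after that injury. All animals were male C57bl/6 mice aged 8 to 10 weeks, so both groups carry the injury, a virus and GFP, and no uninjured or virus-free group was analysed here. The ganglia were dissociated and spun through an albumin gradient that enriches neurons, so the glial RNA measured is what that enrichment left. The promoter of the virus, the cells it reached and whether a library is 1 animal or a pool are not given in the sources used here, so the p-values rest on differences among libraries that could in part be technical.

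Satellite glia arise from the neural crest, as Schwann cells do, and share many genes with them. They buffer potassium and take up glutamate around the neuron, convert glutamate to glutamine, are coupled by gap junctions, and carry lipid through fatty acid binding proteins. After nerve injury they are known to change shape and gene expression, and signalling between them and the neuron has been linked to axon growth.

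The values are TPM (a length-corrected share of a library whose total is fixed), summed over the transcripts of each gene. Sensory neuron genes were high, as the preparation implies: a list of 12 neuronal genes summed to between 23374 and 23812 TPM with AAV-Leptin-GFP and between 23992 and 25221 TPM with AAV-GFP. All 10 satellite glial genes were detected beside them in every library, at levels that ranged widely. Sox10, S100b and Cdh19 are also made by Schwann cells, and these libraries do not separate the cells. Per length, S100b stood highest with a mean of 997 TPM over the 6 libraries, at rank 97 of 15108 tested genes. Next came Dbi at 780 TPM and Fabp7 at 736 TPM, a pair that did not differ beyond their spread in AAV-GFP libraries. Glul followed at 311 TPM and Ednrb at 86.1 TPM. Sox10 at 59.0 TPM and Cdh19 at 50.5 TPM were neighbours whose values lay apart in AAV-Leptin-GFP libraries, with Sox10 the higher, and overlapped in AAV-GFP libraries. Ptprz1 (35.5 TPM), Cadm2 (12.7 TPM) and Slc1a3 (8.14 TPM) were the lowest.

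The delivered gene Lep was listed at 0.751, 0.547 and 3.56 TPM in the AAV-Leptin-GFP libraries and at 0 in every AAV-GFP library, which matches the labels. Its receptor Lepr was near 1 TPM, at 1.18, 1.30 and 1.64 TPM with AAV-Leptin-GFP and 1.04, 0.739 and 1.61 TPM with AAV-GFP. In RNA of this mixed, neuron-enriched preparation these values do not say which cells held the receptor.

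Fabp7 had the lowest fold change of the 10 genes, and its upstream sequence is shown for that reason. It runs from 5′ to 3′ on the strand of the gene and ends before the first annotated start of the gene. Capitals mark a match to ACAAT, the core of the motif bound by SOX factors such as Sox10, or to its reverse complement ATTGT.
Fabp7: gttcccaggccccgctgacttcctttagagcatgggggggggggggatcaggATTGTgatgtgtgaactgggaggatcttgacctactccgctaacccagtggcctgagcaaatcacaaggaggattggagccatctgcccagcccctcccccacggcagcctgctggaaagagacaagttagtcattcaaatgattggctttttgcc
The stretch covers 208 bases on the plus strand (chr10:57784673-57784880), from RefSeq on GRCm38.p6. Over the 250 bases before the RefSeq start, Fabp7 held 1 match. Of the 8 members with a promoter in the table, Fabp7 and Slc1a3 held a match (2 of 8), while 27.7% of all 32851 mouse promoters of that length held one. A match is a short run of letters, not a site shown to be bound. Cdh19 and Sox10 had no entry.

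None of the 10 genes passed the test over all tested genes (limma, Benjamini-Hochberg adjusted p under 0.05 over 15108 genes): 0 were called higher and 0 lower, where 1.54% of all tested genes were called higher and 0.0662% lower. At an unadjusted limma p under 0.05, 1 member was higher and 3 were lower, against 11.3% and 8.19% of all tested genes. Leaving out 1 library gave 0 to 2 higher and 2 or 3 lower, with 0 higher and 2 lower without leptin replicate 1 or without leptin replicate 3, 0 and 3 without GFP replicate 2, and 2 and 2 without GFP replicate 3. The 2 groups did not overlap in 2 members, Fabp7 and Dbi, both lower with leptin, while 11.9% of all tested genes lay entirely lower and 13.3% entirely higher. The median log2 fold change of the 10 genes was -0.035 (range -0.53 to 0.21), beside -0.00016 for all tested genes, with 6 members below 0 and 4 above, where 50.1% of all tested genes lay below 0. Fold changes are AAV-Leptin-GFP minus AAV-GFP in log2(TPM + 1), which understates changes of low genes. In bulk RNA, fewer cells of a type and less RNA per cell cannot be told apart.

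**Figure D1:**
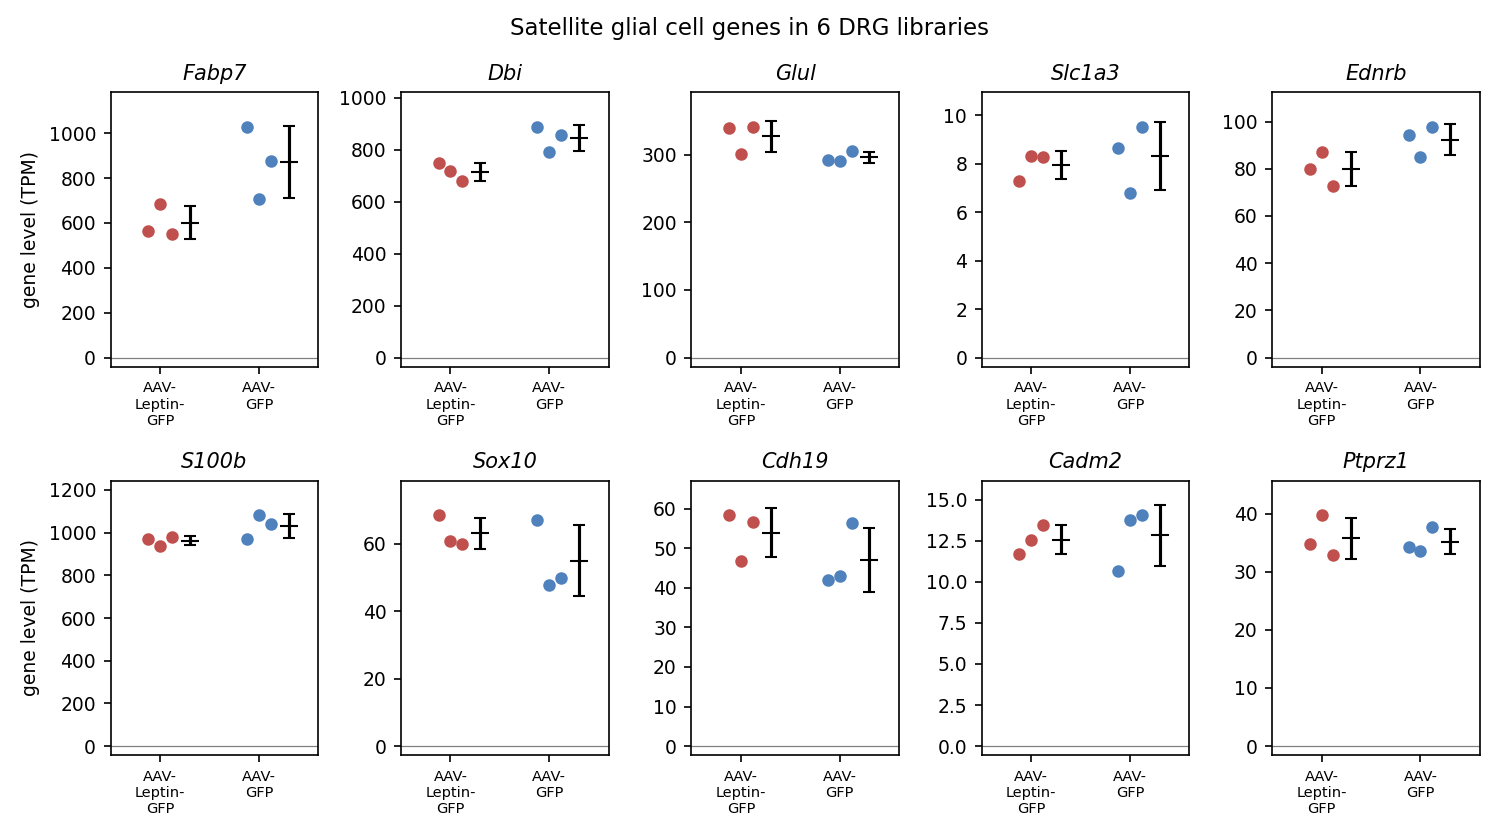
Level of each of the 10 satellite glial genes in TPM (vertical axis, from 0) in AAV-Leptin-GFP libraries (red) and AAV-GFP libraries (blue), 1 point per library, with bars for mean ± SD (n = 3 each). Fabp7 and Dbi are the genes in which every red point lies below every blue point; Fabp7 averaged 600.3 TPM with AAV-Leptin-GFP and 871 TPM with AAV-GFP.

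The 2 lipid carriers had the smallest p-values of the 10 genes. Fabp7 encodes the brain-type fatty acid binding protein, which carries long-chain polyunsaturated fatty acids and is a standard marker of satellite glia (ENSMUSG00000019874, chromosome 10, 57784881 to 57788450 on GRCm38). It stood at 565, 685 and 551 TPM in the AAV-Leptin-GFP libraries, against 1029, 709 and 874 TPM in the AAV-GFP libraries. Every leptin library was below every GFP library, but only just for leptin replicate 2 and GFP replicate 2. The means were 600.3 ± 73.8 TPM and 871 ± 160 TPM (SD, n = 3 each), a ratio of 0.689 and a log2 fold change of -0.53 (SE 0.14, 95% interval -0.85 to -0.20, limma adjusted p = 0.106). A more negative fold change was found in 0.86% of tested genes, while by p Fabp7 ranked 935 of 15108. The members were chosen with earlier results of these data known. The GFP libraries were spread more widely than the leptin libraries.

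Dbi encodes the acyl-CoA binding protein, which holds activated fatty acids and is also the precursor of secreted peptides that act on GABA-A receptors (ENSMUSG00000026385, chromosome 1, 120113280 to 120121078). Its values were 747, 717 and 680 TPM with AAV-Leptin-GFP, against 888, 791 and 857 TPM with AAV-GFP. Here too the groups did not overlap, and the libraries of each group lay closer together than for Fabp7. The means were 715 ± 33.9 TPM and 845 ± 49.7 TPM (SD, n = 3 each), with a log2 fold change of -0.24 (SE 0.055, 95% interval -0.37 to -0.11, limma adjusted p = 0.0776), or -0.15 under quantile normalization. Dbi had the smallest p of the 10 members. It is not a glial gene alone, since many cell types make it.

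Together Fabp7 and Dbi made up most of the difference in the summed level of the 10 genes. That sum was 2881, 2896 and 2794 TPM with AAV-Leptin-GFP and 3438, 3102 and 3342 TPM with AAV-GFP, a ratio of means of 0.867. Fabp7 and Dbi alone summed to 1312, 1402 and 1231 TPM with leptin, against 1917, 1499 and 1731 TPM with GFP (ratio 0.766). The other 8 members summed to 1569, 1493 and 1563 TPM with leptin, against 1521, 1602 and 1611 TPM with GFP (ratio 0.977), and those libraries overlapped. Set against 100 TPM of the neuronal list in the same library, the 10 genes held 12.3, 12.2 and 11.8 TPM with leptin and 14.3, 12.8 and 13.3 TPM with GFP. These sums and ratios are a description, given without a p, and the pair was picked after its values were seen.

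Of 11 further genes of fatty acid binding and acyl-CoA handling tested, 0 were called in either direction, with a median log2 fold change of -0.049. At an unadjusted limma p under 0.05 none was higher and 1 was lower, against 11.3% and 8.19% of all tested genes. Acbd6, another acyl-CoA binding domain protein, had the smallest p, at 66.6, 67.9 and 66.5 TPM with AAV-Leptin-GFP and 71.5, 74.5 and 81.002 TPM with AAV-GFP (log2 fold change -0.17, SE 0.057, limma adjusted p = 0.164), and with protein-coding transcripts only its log2 fold change was -0.049. Fabp5, a family member also made by neurons, was at 287, 298 and 307 TPM with leptin and 300.0, 333 and 350 TPM with GFP, and Fabp3 overlapped between the groups.

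The glutamate pair, Glul and Slc1a3, had fold changes of opposite sign and neither was called. Glul encodes glutamine synthetase, the enzyme with which glia turn glutamate into glutamine (ENSMUSG00000026473, chromosome 1, 153899944 to 153909723). It was at 339, 301 and 341 TPM with AAV-Leptin-GFP, against 292, 290 and 306 TPM with AAV-GFP. Leptin replicate 2 lay among the GFP values, and the other 2 leptin libraries were above them all. The log2 fold change was 0.14 (SE 0.057, 95% interval 0.0076 to 0.28, limma adjusted p = 0.235), or 0.22 under quantile normalization. Slc1a3 encodes GLAST, the glutamate transporter of satellite glia (ENSMUSG00000005360, chromosome 15, 8634124 to 8710764), and it stood low at 7.28, 8.31 and 8.29 TPM with leptin against 8.64, 6.79 and 9.53 TPM with GFP. Those values overlapped fully, with a log2 fold change of -0.048 (SE 0.13, 95% interval -0.35 to 0.25, limma adjusted p = 0.878).

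Among 12 other genes of glutamate and glutamine handling, Slc1a2 was called, and none was called lower; the list's median log2 fold change was 0.10. Slc1a2 encodes GLT-1, the main astrocytic glutamate transporter, and rose to 4.20, 4.37 and 6.56 TPM with AAV-Leptin-GFP, against 1.90, 1.97 and 1.61 TPM with AAV-GFP (log2 fold change 1.08, SE 0.17, limma adjusted p = 0.0365). The difference lay in part of its transcripts. Its transcript ENSMUST00000123759 was listed at 1.38, 2.24 and 4.09 TPM with leptin and at 0 in every GFP library. ENSMUST00000111212 was also higher without overlap, at 1.48, 1.03 and 1.30 TPM with leptin and 0.684, 0.722 and 0.498 TPM with GFP. The transcript ENSMUST00000080210 of the same gene stood at 0.932, 1.11 and 1.17 TPM with leptin and 1.22, 1.25 and 1.12 TPM with GFP. The call ended when any 1 of the 6 libraries was left out (adjusted p between 0.0520 and 0.162) and with the replicate number as a block (adjusted p = 0.0787). It also ended with no filter on low values (0.109), quantile normalization (0.0537) or no trend (0.0594), and the adjusted p ranged from 0.0305 to 0.162 over all alternatives.

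Ednrb, the endothelin B receptor through which endothelins act on satellite glia, gave 79.8, 87.0 and 72.7 TPM with AAV-Leptin-GFP, against 94.5, 84.8 and 97.8 TPM with AAV-GFP (ENSMUSG00000022122, chromosome 14, 103814625 to 103844402). Leptin replicate 2 exceeded GFP replicate 2, so the groups overlapped in that pair. The log2 fold change was -0.21 (SE 0.081, 95% interval -0.40 to -0.019, limma adjusted p = 0.218). Its ligands were scarce: Edn1, Edn2 and Edn3 all lay under the filter on low values, below 1 TPM in every library. Of the 3 other endothelin genes tested none was called. The processing enzyme gene Ece2 had the smallest p, at 71.6, 76.9 and 69.5 TPM with leptin and 63.2, 61.2 and 64.9 TPM with GFP (log2 fold change 0.20, limma adjusted p = 0.112). With protein-coding transcripts only, the Ece2 log2 fold change was 0.013 (limma adjusted p = 0.947).

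S100b, a calcium-binding protein of glia, was the most abundant member (ENSMUSG00000033208, chromosome 10, 76253853 to 76261159). Its values were 970, 938 and 978 TPM with AAV-Leptin-GFP, against 972, 1082 and 1039 TPM with AAV-GFP. The lowest GFP library lay within the leptin range. The log2 fold change was -0.099 (SE 0.046, 95% interval -0.21 to 0.0085, limma adjusted p = 0.290), or -0.019 under quantile normalization. The gene Dip2a overlaps it on the opposite strand and was far lower, between 22.4 and 26.4 TPM with leptin and between 21.6 and 23.0 TPM with GFP. Within each library Fabp7 held 0.582, 0.731 and 0.563 TPM per TPM of S100b with leptin, against 1.06, 0.655 and 0.841 with GFP, and the groups overlapped on that scale.

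Sox10, the transcription factor that specifies and maintains neural crest glia, was not called (ENSMUSG00000033006, chromosome 15, 79154908 to 79165240). It was at 68.5, 60.7 and 60.0 TPM with AAV-Leptin-GFP, against 67.1, 47.9 and 49.9 TPM with AAV-GFP. One GFP library, replicate 1, sat among the leptin values and the other GFP libraries lay below all of them. The log2 fold change was 0.21 (SE 0.13, 95% interval -0.091 to 0.51, limma adjusted p = 0.422). It was 0.36 without GFP replicate 1 (limma adjusted p = 0.0730) and 0.12 without GFP replicate 2 (limma adjusted p = 0.732). Per TPM of Sox10, Fabp7 held 8.25, 11.3 and 9.19 TPM with leptin and 15.3, 14.8 and 17.5 TPM with GFP. On that scale the groups lay apart, as a description of 2 genes chosen after their values were seen.

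Of 14 further transcription factor genes of the neural crest and glia 11 were tested and none was called. All 11 had a log2 fold change above 0 (median 0.16), where 50.1% of all tested genes lay below 0. The list was chosen with earlier results of these data known. At an unadjusted limma p under 0.05, where 11.3% of all tested genes were higher and 8.19% lower, none was lower and 1 was higher. That gene was Hes1, a Notch pathway repressor, at 17.4, 18.3 and 23.3 TPM with AAV-Leptin-GFP and 14.6, 12.5 and 14.2 TPM with AAV-GFP (log2 fold change 0.48, SE 0.12, limma adjusted p = 0.0925). Sox8 and Sox9, the close relatives of Sox10, were at or under 2 TPM in every library.

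None of the 3 adhesion members, Cdh19, Cadm2 and Ptprz1, was called, and their intervals included 0. Cdh19, a cadherin of neural crest glia (ENSMUSG00000047216, chromosome 1, 110888326 to 110977584), stood at 58.4, 46.8 and 56.7 TPM with AAV-Leptin-GFP, against 41.9, 43.0 and 56.4 TPM with AAV-GFP. GFP replicate 3 lay among the leptin values (log2 fold change 0.20, SE 0.13, 95% interval -0.11 to 0.51, limma adjusted p = 0.459), and the log2 fold change was 0.12 without GFP replicate 1 and 0.33 without GFP replicate 3. Cadm2, an immunoglobulin-type adhesion molecule (ENSMUSG00000064115, chromosome 16, 66655421 to 67620908), stood at 11.7, 12.6 and 13.4 TPM with leptin, against 10.7, 13.8 and 14.1 TPM with GFP. The leptin values lay wholly inside the GFP range (log2 fold change -0.021, SE 0.12, 95% interval -0.29 to 0.25, limma adjusted p = 0.946).

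Ptprz1, a receptor-type tyrosine phosphatase that binds pleiotrophin (ENSMUSG00000068748, chromosome 6, 22875502 to 23052916), was at 34.7, 39.7 and 32.9 TPM with AAV-Leptin-GFP, against 34.2, 33.6 and 37.7 TPM with AAV-GFP. The groups overlapped fully (log2 fold change 0.021, SE 0.084, 95% interval -0.18 to 0.22, limma adjusted p = 0.924). Its ligand gene Ptn was at 179, 204 and 177 TPM with leptin and 219, 196 and 234 TPM with GFP (log2 fold change -0.21, limma adjusted p = 0.215). Of 14 adhesion and Ptprz1 partner genes tested none was called. At an unadjusted limma p under 0.05 none was higher and 2 were lower, against 11.3% and 8.19% of all tested genes. Cadm4, a relative of Cadm2, had the smallest p, with 82.3, 82.2 and 79.0 TPM with leptin and 86.9, 89.0 and 90.3 TPM with GFP (log2 fold change -0.13, limma adjusted p = 0.174).

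**Figure D2:**
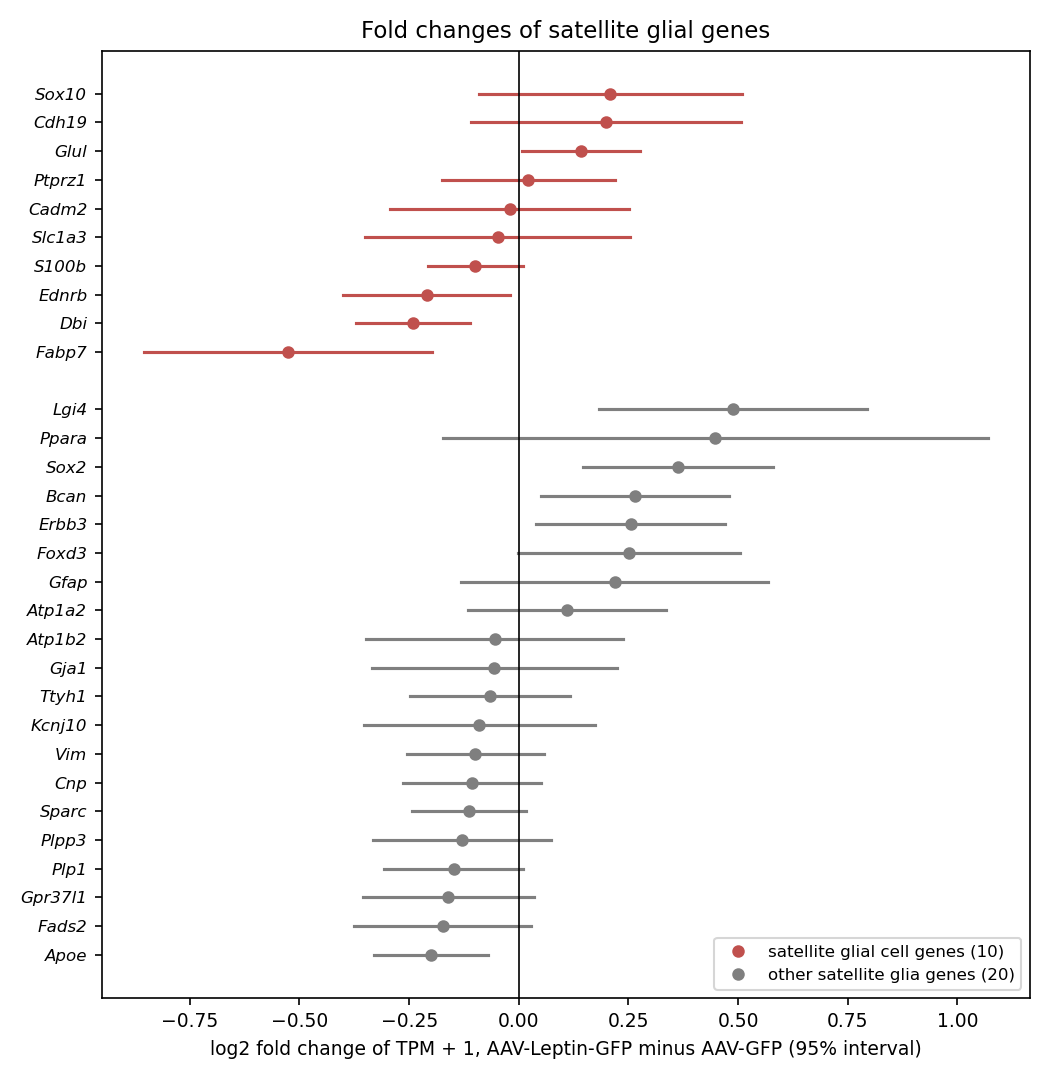
Log2 fold change of TPM + 1, AAV-Leptin-GFP minus AAV-GFP (horizontal axis), with limma 95% intervals for the 10 satellite glial genes (red, upper block) and 20 other satellite glia genes (grey, lower block), n = 3 libraries a group. Fabp7 lies farthest left at -0.53, and Lgi4 farthest right at 0.49; no gene of either block passed the adjusted threshold.

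A second list of 20 genes known from satellite glia and related glia was also tested, and none was called. Without overlap between the groups, 3 lay higher and 1 lower, where 13.3% and 11.9% of all tested genes did. The median log2 fold change was -0.061, and 8 were above 0 against 12 below, where 50.1% of all tested genes lay below 0. At an unadjusted limma p under 0.05, 4 were higher and 1 was lower, against 11.3% and 8.19% of all tested genes. The lower gene was Apoe, the lipid carrier secreted by glia and the most abundant gene of the list, at 6246, 6504 and 5937 TPM with AAV-Leptin-GFP and 7272, 6655 and 7564 TPM with AAV-GFP. These groups did not overlap (log2 fold change -0.20, SE 0.055, limma adjusted p = 0.112), and the log2 fold change was -0.40 under quantile normalization. On the higher side Sox2, a stem cell factor also made by glia, had the smallest p, with 28.3, 26.0 and 23.1 TPM with leptin and 21.1, 18.2 and 20.05 TPM with GFP (log2 fold change 0.36, SE 0.092, limma adjusted p = 0.0962). The others higher at an unadjusted limma p under 0.05 were Lgi4, a secreted glial protein (0.49), the proteoglycan Bcan (0.27) and Erbb3, the neuregulin receptor (0.25). The potassium channel gene Kcnj10 was at 51.2, 48.0 and 39.5 TPM with leptin and 53.5, 43.7 and 50.4 TPM with GFP. The gap junction gene Gja1 was at 20.8, 20.3 and 18.2 TPM with leptin and 23.5, 17.1 and 21.6 TPM with GFP, and both genes overlapped between groups. The 20 genes together summed to 8611, 8842 and 7998 TPM with leptin and 9713, 8843 and 9939 TPM with GFP. The ratio of means was 0.893, and the groups only just lay apart. Apoe alone averaged 6229 TPM with leptin and 7164 TPM with GFP. Per 100 TPM of the neuronal list the sum was 36.8, 37.1 and 33.8 TPM with leptin and 40.5, 36.4 and 39.4 TPM with GFP, which overlapped.

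Of 12 genes that glia switch on when activated 9 were tested and none was called (median log2 fold change 0.20). At an unadjusted limma p under 0.05, 1 was higher and 1 was lower, against 11.3% and 8.19% of all tested genes. Cxcl1, a chemokine, was at 1.11, 2.37 and 2.37 TPM with AAV-Leptin-GFP and 0.646, 0.681 and 0.270 TPM with AAV-GFP (log2 fold change 0.92, limma adjusted p = 0.106, or 1.70 with a pseudocount of 0.1). Serpina3n, a serine protease inhibitor, was at 222, 192 and 178 TPM with leptin and 255, 221 and 220 TPM with GFP (log2 fold change -0.23, limma adjusted p = 0.231). Gfap, which satellite glia are known to make more of after nerve injury, stood at 2.79, 2.54 and 2.65 TPM with leptin and 1.69, 2.25 and 2.54 TPM with GFP.

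Libraries within a group differed from each other in glial genes, most plainly in the 20 other satellite glia genes. AAV-GFP replicate 2 was the lowest of its group in 7 of the 10 members and in 18 of the 20 other satellite glia genes, and AAV-GFP replicate 1 was the highest in 15 of those 20. In the 10 members AAV-GFP replicate 1 was the highest in 3 and the lowest in 3. In the 14 myelinating Schwann cell genes AAV-GFP replicate 2 was the lowest of its group in 6. AAV-Leptin-GFP replicates 1 and 3 were each the lowest of theirs in 6. The same counts over all tested genes were not taken. AAV-Leptin-GFP replicate 3 was the lowest of its group in 17 of the 20, though in 5 of the 10 members. In the 12 neuronal genes it was the lowest in 6, and AAV-Leptin-GFP replicate 1 in 5. AAV-Leptin-GFP replicate 3 also stood apart in red blood cell genes, whose 6-gene sum was 241, 375 and 1727 TPM in the 3 leptin libraries against 257, 171 and 172 TPM in the GFP libraries. The part of these library differences in the glial results was not tested beyond leaving out each library. Without AAV-GFP replicate 1 or any other single library no member was called, and the adjusted p over all alternatives ranged from 0.0877 to 0.250 for Fabp7 and from 0.0651 to 0.223 for Dbi.

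**Figure D3:**
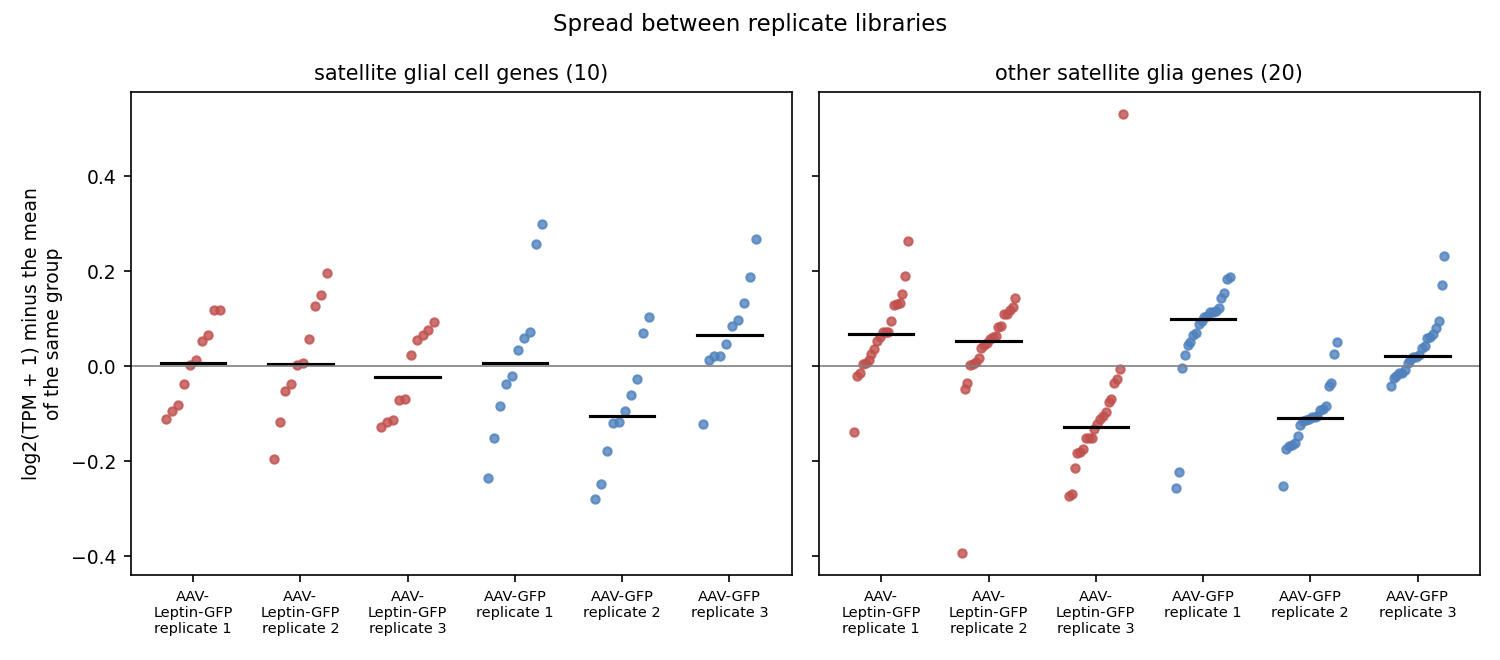
Each point is 1 gene in 1 library, as log2(TPM + 1) minus the mean of that gene over the 3 libraries of the same group (vertical axis), with the median as a black bar; left panel, the 10 satellite glial genes, right panel, the 20 other satellite glia genes. In the right panel the medians of AAV-Leptin-GFP replicate 3 (-0.13) and AAV-GFP replicate 2 (-0.11) lie below 0, and those of the remaining libraries above it.

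Marker genes of the other cell types in a ganglion were measured as lists. The 14 myelinating Schwann cell genes summed to 989, 960 and 903 TPM with AAV-Leptin-GFP against 1057, 1023 and 1069 TPM with AAV-GFP, sums that did not overlap, and 1 of the genes was called. It was Egr2, a myelination factor that many cells also induce as an early response gene, which rose to 10.7, 14.4 and 14.1 TPM with leptin against 4.48, 5.32 and 4.34 TPM with GFP (log2 fold change 1.29, SE 0.13, limma adjusted p = 0.0155). That call ended with no filter on low values (adjusted p = 0.0661) and without leptin replicate 2 or 3 or GFP replicate 2 or 3 (adjusted p = 0.125, 0.0645, 0.0861 and 0.120), and the adjusted p ranged from 0.00652 to 0.125 over all alternatives. Pmp22, the most abundant of the list, overlapped at 595, 527 and 507 TPM with leptin and 606, 581 and 567 TPM with GFP. The 10 non-myelinating and repair Schwann cell genes summed to 788, 797 and 745 TPM with leptin and 811, 814 and 852 TPM with GFP, again with no overlap, led by Ngfr, which neurons also make (log2 fold change -0.14, limma adjusted p = 0.202). Ngfr alone averaged 514 TPM with leptin and 566 TPM with GFP. Of the 6 genes tested, 4 lay above 0 and 2 below, with a median log2 fold change of 0.058, so the lower sum does not describe the list.

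The 15 macrophage genes summed to 142 to 151 TPM with AAV-Leptin-GFP and 143 to 176 TPM with AAV-GFP, led by Lyz2 (log2 fold change 0.093), with Cx3cr1 the member of smallest p (-0.26, limma adjusted p = 0.467). The 10 endothelial genes summed to 77.2 to 89.9 TPM with leptin and 93.4 to 96.2 TPM with GFP, with no overlap, led by Egfl7 (log2 fold change -0.22, limma adjusted p = 0.112). Egfl7 alone averaged 56.2 TPM with leptin and 65.8 TPM with GFP, within mean sums of 84.6 and 94.6 TPM. Of the 8 endothelial genes tested, 4 lay above 0 and 4 below, with a median log2 fold change of -0.011. The defining endothelial genes Pecam1, Cdh5, Kdr and Tek were all under 5 TPM. The 8 pericyte and smooth muscle genes summed to 54.4 to 72.3 TPM with leptin and 63.4 to 90.0 TPM with GFP, led by Rgs5 (-0.27, limma adjusted p = 0.413). The 9 fibroblast genes summed to 145 to 208 TPM with leptin and 136 to 177 TPM with GFP, led by Apod (0.024), with Mgp the member of smallest p (0.59, limma adjusted p = 0.373). No gene of these 4 lists was called. Of the 6 red blood cell genes Hbb-bs had the highest mean level (log2 fold change 1.44, limma adjusted p = 0.310). Hbb-bt had the smallest p (1.59, limma adjusted p = 0.179). None of the 6 was called and all 6 lay above 0, where 50.1% of all tested genes lay below 0. Entirely higher were 3, where 13.3% of all tested genes were. Without leptin replicate 3 the log2 fold change was 0.55 for Hbb-bs and 0.94 for Hbb-bt. Of 12 neuronal genes 0 were called, and 4 were lower and 1 higher at an unadjusted limma p under 0.05, against 8.19% and 11.3% of all tested genes. Their median log2 fold change was -0.050, with 10 below 0 and 2 above. Entirely lower were 4 and entirely higher 1, where 11.9% and 13.3% of all tested genes were. The summed neuronal TPM did not overlap between the groups either (ratio of means 0.964). Stmn2 had the smallest p (-0.14, limma adjusted p = 0.114), and the most abundant, Nefl, stood at -0.019. The part of these cell types in the satellite glial values was not tested.

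**Figure D4:**
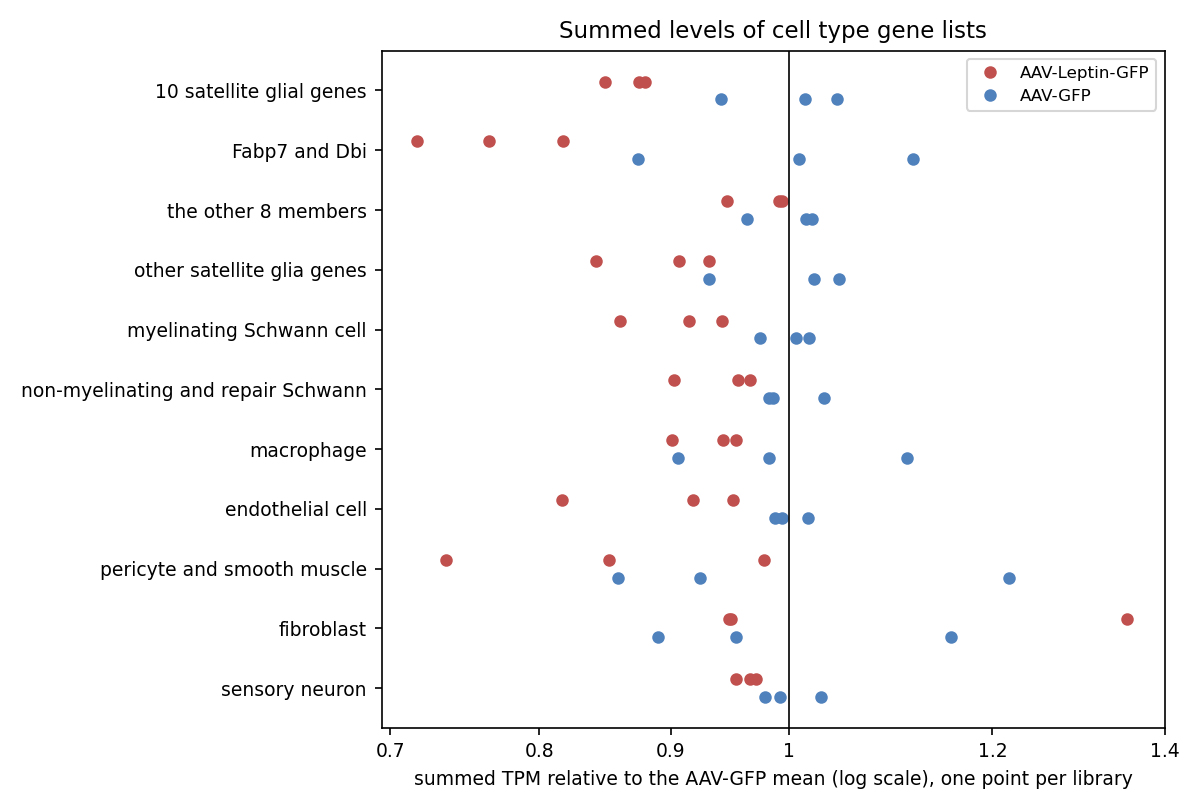
Summed TPM of each gene list in each library, divided by the mean of the AAV-GFP libraries (horizontal axis, log scale), with AAV-Leptin-GFP in red above AAV-GFP in blue. The ratio of group means is 0.766 for Fabp7 and Dbi, 0.977 for the other 8 members and 0.964 for the sensory neuron list; the red blood cell list is left out because 1 library lies far outside the axis.

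At the level of single transcripts, the leading protein-coding forms of Fabp7 and Dbi had the negative fold changes of their genes. Of 44 transcripts of the 10 genes 25 had a mean of at least 1 TPM and were tested one by one, with p adjusted over 33615 transcripts. None was called, where 0.107% of all transcripts were called higher and 0.0238% lower. At an unadjusted limma p under 0.05, 6 were higher and 3 lower, against 12.3% and 6.01% of all transcripts. All of these belonged to Dbi, Fabp7 and Glul, and each higher one held about 1.00% or less of its gene's TPM. The leading Glul transcript, with 98.4% of the gene's TPM, had a log2 fold change of 0.11 (limma adjusted p = 0.369).

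The leading Fabp7 transcript, with 99.0% of the gene's TPM, was at 552, 673 and 544 TPM with AAV-Leptin-GFP and 1022, 706 and 872 TPM with AAV-GFP (log2 fold change -0.55, limma adjusted p = 0.119). The second Fabp7 transcript was at 12.4, 12.5 and 7.48 TPM with leptin and 7.12, 2.22 and 2.54 TPM with GFP (log2 fold change 1.35, limma adjusted p = 0.138). In both transcripts the groups did not overlap, with fold changes of opposite sign. The leading Dbi transcript, 95.2% of the gene, was at 696, 679 and 649 TPM with leptin and 845, 756 and 831 TPM with GFP (log2 fold change -0.26, limma adjusted p = 0.0716).

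Retained-intron transcripts, which keep an intron and are mostly not translated, were annotated for 5 members and took a small share of each. In 4 of the 5 that share was higher in every AAV-Leptin-GFP library than in every AAV-GFP library, where 42.9% of 7345 tested genes with such transcripts lay entirely higher and 0.803% entirely lower. In Glul the share was 1.67%, 1.14% and 1.75% of the gene's TPM with leptin, against 0.495%, 0.0721% and 0.0723% with GFP. Ptprz1 held 5.03%, 4.17% and 3.46% with leptin and 1.36%, 1.31% and 0.977% with GFP. These groups stood well apart, although each exact two-sided permutation test of 3 against 3 libraries gave p = 0.1, the smallest it allows.

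Dbi held 2.76%, 1.99% and 1.62% as retained-intron transcripts with AAV-Leptin-GFP, against 0.927%, 0.534% and 0.392% with AAV-GFP (exact permutation p = 0.1). Slc1a3 held 2.12%, 0.802% and 4.22% with leptin and was listed at 0 in the GFP libraries, from values under 0.4 TPM (exact permutation p = 0.1). In Sox10 the shares overlapped, at 2.01%, 2.36% and 1.08% with leptin and 1.08% and 1.10% in GFP replicates 1 and 3, with GFP replicate 2 listed at 0 (exact permutation p = 0.2). Over all genes of the libraries, retained-intron transcripts took 3.60%, 3.75% and 3.24% of TPM with leptin and 2.50%, 2.10% and 2.27% with GFP, the same direction as in these members. Mitochondrially encoded genes took 7.35% to 9.15% of TPM with leptin and 5.66% to 6.13% with GFP, and 61474 to 64423 transcripts were above 0 with leptin against 55476 to 60572 with GFP. The part of these library differences in the shares was not tested.

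**Figure D5:**
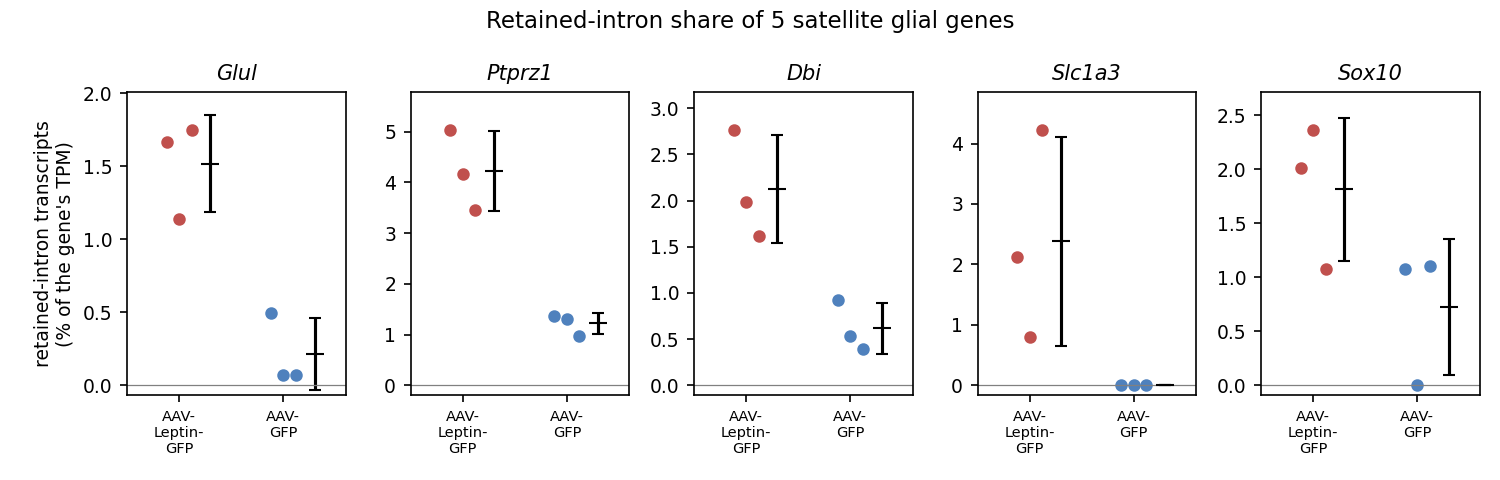
Retained-intron transcripts as a percentage of the gene's TPM (vertical axis) for the 5 satellite glial genes that have them, in AAV-Leptin-GFP libraries (red) and AAV-GFP libraries (blue), 1 point per library with mean ± SD (n = 3 each). The groups are apart in Glul, Ptprz1, Dbi and Slc1a3 and overlap in Sox10; the 3 AAV-GFP points of Slc1a3 are at 0.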

How the data were processed

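The authors deposited TPM values, 1 per Ensembl transcript and library, for 3 AAV-Leptin-GFP and 3 AAV-GFP libraries. The submitters' processing notes name Salmon 1.6.0, DESeq2 1.34.0, Trim Galore 0.6.6 and FastQC 0.11.9 and the builds mm10 and GRCm38, without saying what each did. No source used here gives the annotation release. Per the labels' protocols, libraries were stranded and made from polyadenylated RNA. Read depth is unknown, so no counting intervals are given. Transcripts of 1 gene share most of their sequence, so values of minor transcripts and of genes with near-identical copies are uncertain.

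Transcripts were summed by gene identifier. Genes averaging 1 TPM or more over the 6 libraries (15108) entered the test, limma 3.58.1 on log2(TPM + 1) (mean-variance trend, no covariates, two-sided, R 4.3.3), with p-values adjusted by Benjamini-Hochberg over all of them. The test was checked on simulated data. Transcript classes, lengths and gene coordinates come from GENCODE M21 on GRCm38, matched by identifier; 97.4% of 140789 transcripts matched, though the version was the same in 37. Figures were drawn with matplotlib 3.10.9.

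The members and the 16 lists of 183 genes were chosen with earlier results of these data known. The named genes were the 10 members, Lep, Lepr, from each other list up to 3 called genes or else the gene with the smallest p, and from each cell type list the gene with the highest mean; Fabp3, Fabp5, Ptn, Serpina3n, Gfap, Bcan, Lgi4, Erbb3, Kcnj10, Gja1, Sox8, Sox9 and the endothelin and endothelial genes given as low were chosen after their values were seen. Replicate numbers are not said to pair the libraries, which were treated as unpaired. Same-numbered libraries had correlations of their deviations of 0.034, -0.070 and -0.024, which cannot show whether they were collected as pairs. Alternatives were the pseudocount, the filter, the scaling, protein-coding transcripts only, no trend, a replicate block and leaving out each library. The transcript test was added after seeing the data. One promoter sequence is not reported here.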

Additional observations from a re-analysis of the deposited data

How the results depend on the processing

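No member was called under any of the 15 alternatives, and of 150 values of the 10 members 141 kept their direction and 9 turned sign, in Cadm2, Ptprz1 and Slc1a3. Cadm2 turned to 0.011 without mitochondrially encoded genes, 0.011 with protein-coding transcripts only and, in leave-one-out fits, ranged from -0.14 to 0.045; there Ptprz1 ranged from -0.054 to 0.078 (turned also at -0.0092) and Slc1a3 from -0.17 to 0.046 (turned also at 0.0078). The leading Ptprz1 transcript tested alone, a setting chosen after seeing the data, gave -0.11. The members' median ranged from -0.079 to 0.045 over leave-one-out fits, at 0.045 when AAV-GFP replicate 3 was left out and 0.017 when AAV-Leptin-GFP replicate 1 was, and the ratio of their summed TPM was 0.917 under quantile normalization. Calls over all genes, 233 higher and 10 lower, became 4 and 0 with no filter, 88 and 3 with protein-coding transcripts only, 35 and 0 without the trend and 74 and 0 with the replicate block; 27 were lower at a mean of at least 5 TPM and 3 without mitochondrially encoded genes. Leaving out 1 library gave 3 to 409 higher and 0 to 11 lower. Of 312 values of 21 other named genes 290 kept direction and call, 15 lost the call (Slc1a2 and Egr2) and 7 turned sign: Nefl to 0.015 and 0.016 without mitochondrially encoded genes and with protein-coding transcripts only and, in leave-one-out fits, Nefl over -0.043 to 0.018, Apod over -0.21 to 0.15 and Lyz2 over -0.077 to 0.24. The causes were not tested. Read depth is unknown for all genes. At an unadjusted limma p under 0.05 the members numbered 1 higher and 3 lower in the main fit. They numbered 1 and 2 without mitochondrially encoded genes, 0 and 2 without the trend, and 2 and 2 with the replicate block.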
